A study of Mus musculus with 2 samples.

Results

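The deposited expression table holds 29246 rows, and 2982 of them carry no RefSeq transcript, only identifiers that the transcript assembler made from the reads ("CUFF" followed by a number). These assembled loci were chosen by that identifier alone, and no level or difference was used as a rule. A locus receives the identifier only where reads could be assembled, so the choice still depends on coverage by reads. Of the 2982 loci, 289 carry a gene name and 2693 carry none. The loci described here have at least 1 FPKM (fragments scaled to transcript length and to the size of the library) in either library, which held for 149 named loci with 131 different gene names and for 1052 unnamed loci, 1201 in all. They were set beside 11893 rows with RefSeq transcripts that passed the same filter.

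The libraries came from the epidermal layer of the ear of C57BL/6 mice after 6 days of 5% imiquimod, a Toll-like receptor 7 agonist whose repeated use gives psoriasis-like skin inflammation. For the knockout library the mice carried the K14 conditional Il9ra KO (Il9r in the table), which removes the interleukin-9 receptor, and for the wild-type library they were wild type and had the same imiquimod treatment. K14 is keratin 14, which is made by basal keratinocytes and in hair follicles, so other cells of the sheet keep the gene under such a driver. The sources used here do not give age, sex, the Cre line or how many animals stand behind each library. With 1 library per genotype there was no replicate, no spread between animals and no test, and every difference below is between these 2 libraries.

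A transcript assembler joins overlapping fragments into loci and then compares them with an annotation. Loci that match no annotated transcript can be long non-coding RNAs, antisense transcripts, transcript ends that run past an annotated gene, fragments of introns from unspliced RNA, or reads of repeats and small RNAs, and a name can be given to a locus for lying in or beside a gene. Most such loci in bulk tissue are short and low, so their FPKM rests on few fragments.

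The assembled loci have no coordinates in the table and their own sequences were not used here. The sequences below are those of annotated genes whose names assembled loci carry, shown because the loci of these names are described further on. The microRNA sequences are the mature forms listed by RefSeq on GRCm38.p6, both genes on chromosome 16, with the seed, bases 2 to 8, in capitals. The miR-365 gene lies on the plus strand at chr16:13453855-13453877 for its 5p arm and chr16:13453895-13453916 for its 3p arm, and miR-1945 on the minus strand at chr16:11254381-11254402.
mmu-miR-365-1-5p: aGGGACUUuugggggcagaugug
mmu-miR-365-3p: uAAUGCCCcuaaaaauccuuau
mmu-miR-1945: uCUUCGCGgguacugucgggac
The 3 seeds differ from one another.

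The upstream sequences are the 250 bases before the RefSeq start of C530005A16Rik (chr4:116597631-116597880, minus strand, GRCm38.p6), whose name belongs to the named locus with the highest difference among those of at least 5 FPKM, and of Prr9 (chr3:92123948-92124197, minus strand), whose assembled locus and RefSeq row differed in opposite directions. Capitals mark matches, on either strand, to the TATA box letters TATAAA, the GC box letters GGGCGG and the AP-1 letters TGANTCA.
C530005A16Rik: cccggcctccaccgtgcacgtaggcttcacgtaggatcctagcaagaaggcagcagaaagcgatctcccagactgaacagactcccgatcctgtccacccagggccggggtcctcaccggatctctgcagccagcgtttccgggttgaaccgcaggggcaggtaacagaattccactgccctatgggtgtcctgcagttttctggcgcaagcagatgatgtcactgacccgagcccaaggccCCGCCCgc
Prr9: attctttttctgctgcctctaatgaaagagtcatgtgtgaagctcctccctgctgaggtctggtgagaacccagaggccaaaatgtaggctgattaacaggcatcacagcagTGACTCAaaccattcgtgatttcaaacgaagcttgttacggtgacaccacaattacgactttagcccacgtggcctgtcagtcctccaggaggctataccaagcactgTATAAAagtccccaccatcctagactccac
The C530005A16Rik sequence holds 1 match, a GC box, and the Prr9 sequence holds 2 matches that do not overlap, a TATA box and an AP-1 match. Over 32851 RefSeq promoters of the same length, 12.4% hold the TATA box letters, 32.7% the GC box and 6.75% AP-1. A match is a run of letters, and the table does not say where the assembled transcripts start.

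Keratinocyte genes marked the tissue as labelled: Krt14 had 8083 FPKM in the knockout and 7421 FPKM in the wild-type library. Krt10, a keratin of the spinous layer, had 14704 FPKM in the knockout and 14182 FPKM in wild type. The targeted gene, Il9r, had 0.0106 FPKM in the knockout and 0.0393 FPKM in the wild-type library, too low in both to check the labels. Among genes with RefSeq rows, the interferon response genes past the filter, 28 of 28, had higher values in the knockout library (median log2 difference 0.82). The summed level of a Langerhans and dendritic cell list was 263 FPKM in the knockout and 397 FPKM in wild type. Of its 5 genes past the filter, 1 was higher in the knockout library and 1 was lower by 2-fold, with a median log2 difference of -0.91. The summed level of a hair follicle list was 9.36 FPKM in the knockout and 18.2 FPKM in wild type. A neutrophil list (Ly6g, S100a8, S100a9, Retnlg and Csf3r) summed to 653 FPKM in the knockout and 210 FPKM in wild type. Of its 5 genes, 2 passed the filter and both were higher by 2-fold. In the knockout library 3 of the 5 were listed at 0, and in the wild-type library 2. The knockout sum thus rests on 2 genes and cannot be read as a number of neutrophils. The part of these cell types in the differences of the assembled loci was not tested. No assembled locus carries the name of a gene on those lists. The sequenced depth, estimated from the FPKM steps of low genes, was 31300000 fragments in the knockout and 24300000 in the wild-type library. In such sheets, fewer cells of a type and less RNA per cell cannot be told apart.

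Assembled loci held 1.26% of the summed FPKM in the knockout library and 0.738% in the wild-type library, 7897 FPKM in the knockout and 4681 FPKM in wild type. The unnamed loci made up 0.802% in the knockout and 0.440% in wild type, and the named loci 0.462% in the knockout and 0.299% in wild type. Most of the gap between the libraries came from the locus named Filip1l and the unnamed locus CUFF.5511. Without both, the shares were 0.659% in the knockout and 0.538% in the wild-type library, and without Filip1l alone they were 0.898% in the knockout and 0.538% in wild type.

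**Figure D1:**
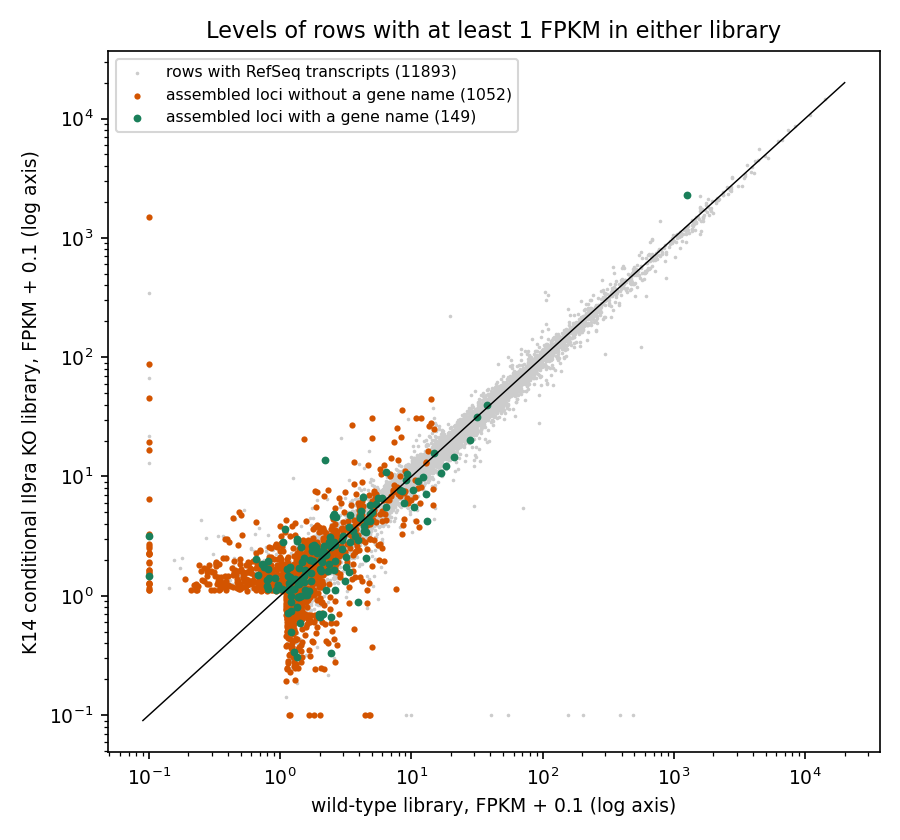
FPKM + 0.1 on log axes, the knockout library on the vertical and the wild-type library on the horizontal axis, for rows with 1 FPKM or more in a library; the line marks equal values. The 1052 unnamed loci spread more widely around the line than the 11893 RefSeq rows, and CUFF.5511 stands alone at the upper left with 1491 FPKM in the knockout library and a listed 0 in wild type.

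Differences are knockout over wild type, as log2 of the ratio after 1 was added to both FPKM values, so low loci move less than their ratio. On this scale 87 unnamed loci, 8.27% of the 1052, were higher in the knockout library by 2-fold or more and 44, 4.18%, were lower, where all rows with 1 FPKM or more gave 1.07% and 0.680%. RefSeq rows gave 0.412% higher and 0.345% lower. The unnamed shares were above the RefSeq shares in both directions, and 705 unnamed loci lay within 1.5-fold.

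Among named loci, 4 of 149 were higher and 4 lower by 2-fold, 2.68% each way. That share is near the one of RefSeq rows with only non-coding transcripts, 2.03% higher and 2.30% lower over 740 rows. The median difference was 0.08 for unnamed loci, -0.0089 for named loci, -0.06 for non-coding RefSeq rows and -0.02 for all RefSeq rows. Positive differences made up 56.8% of unnamed loci, 47.7% of named loci and 44.4% of RefSeq rows. The central 90% ran between -0.96 and 1.21 for unnamed loci, between -0.86 and 0.77 for named loci, and between -0.35 and 0.31 for RefSeq rows.

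The filter itself shapes these counts, since 294 of the 1052 unnamed loci passed through the knockout library alone and 230 through the wild-type library alone. A locus also had to be assembled from reads to be listed. Over all 2693 unnamed loci, 65 were at 0 in the wild-type library and 12 in the knockout library. Over all 26264 RefSeq rows, 8983 were at 0 in wild type and 8883 in the knockout. Whether the assembly favoured 1 library was not tested. Over the 528 unnamed loci with 1 FPKM or more in both libraries, 24 were higher by 2-fold and 13 lower, with a median of 0.04 and 304 positive differences. RefSeq rows under that filter gave 20 higher and 23 lower of 11435, and named loci 1 and 1 of 109. Just inside the filter lay CUFF.5037, with 0.0933 FPKM in the knockout and 1.00 FPKM in wild type, and the AA474408 locus, with 1.02 FPKM in the knockout and 0.822 FPKM in wild type. Just outside it lay CUFF.13394, with 0.999 FPKM in the knockout and 0.431 FPKM in wild type, and the Rasl10a locus, with 0.396 FPKM in the knockout and 0.987 FPKM in wild type.

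**Figure D2:**
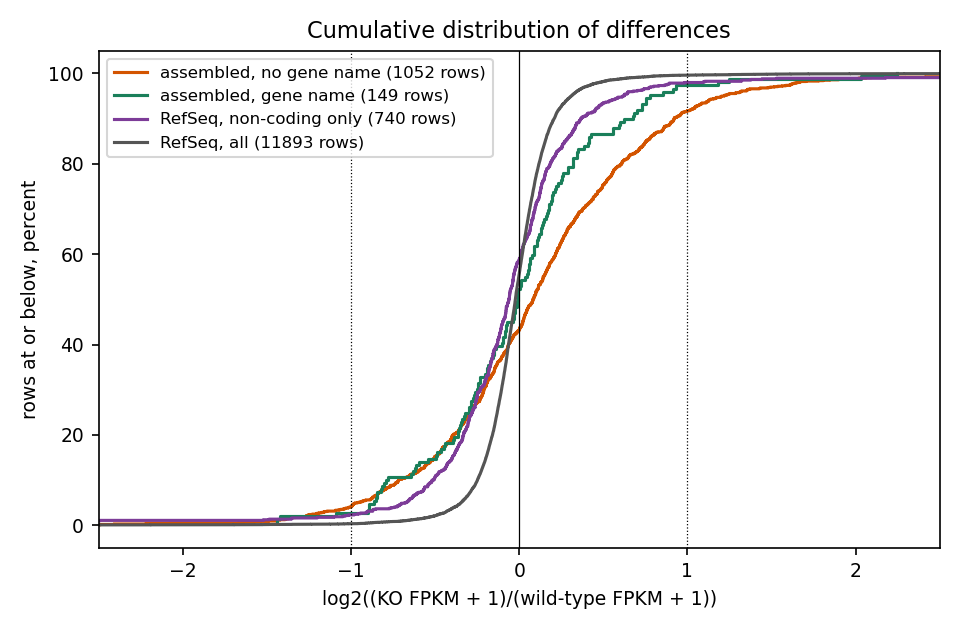
Cumulative percent of rows by log2 difference, for unnamed and named assembled loci, RefSeq rows with only non-coding transcripts and all RefSeq rows, each with at least 1 FPKM in either library; dotted lines mark 2-fold. The curve of unnamed loci is the widest and is shifted to the right, with a median of 0.08 against -0.02 for RefSeq rows.

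Unnamed loci were also grouped by the higher of their levels. For the 43 unnamed loci that reached 10 FPKM the median difference was 0.92, and 33 had their higher value in the knockout library. Of the 43 loci, 24 reached 10 FPKM in the knockout library alone, 10 in the wild-type library alone and 9 in both, so most entered through the library where they were high, and the median cannot be read as a level effect. The median was 0.07 for 656 loci between 1 and 2 FPKM, 0.08 for 289 loci between 2 and 5 FPKM and 0.07 for 64 loci between 5 and 10 FPKM. RefSeq rows of at least 10 FPKM had a median of -0.03. At 10 FPKM or more there were 33 unnamed loci in the knockout library and 19 in the wild-type library. The highest unnamed locus of the wild-type library had 14.7 FPKM, and 20 unnamed loci exceeded that level in the knockout library. No wild-type value can exceed a level set at the wild-type maximum, so that count is not an even comparison.

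Most assembled loci were single transcripts. A single assembled transcript made up 953 of the 1052 unnamed loci, and 85 of these were higher by 2-fold and 44 lower. The 99 unnamed loci with 2 or more transcripts had 2 higher and 0 lower, with a median of 0.05 and 61 positive differences. Loci of more than 1 transcript thus made up 2 of the 131 unnamed loci past 2-fold. The table gives no locus lengths, so counting intervals could not be set.

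Each row of the authors' deposited table also has a p-value and a q-value for the comparison of these 2 libraries. In the authors' deposited table no assembled locus had a q-value below 0.05, and 20 RefSeq rows had. The authors' deposited table gives a p-value below 0.05 to 56 assembled loci (4.66%), 37 higher and 19 lower, where 2.18% of all rows past the filter had one. By kind, the authors' deposited table gives such a p-value to 52 unnamed loci (4.94%), 4 named loci (2.68%), 1.93% of RefSeq rows and 2.43% of non-coding RefSeq rows.

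Positions of the unnamed loci had to be inferred. CUFF numbers run along the chromosomes, and table rows follow chromosome, strand and start, so a locus was given the chromosome of its nearest-numbered RefSeq rows and the interval between the starts of its nearest RefSeq rows in the table. Among 7558 RefSeq rows tried in this way, 99.7% received their own chromosome, and 96.4% of 5045 rows given an interval started in it. Of the 1052 unnamed loci, 1038 received a chromosome and 964 an interval, of a median 313 kb. Whether a locus lies inside or beside a flanking gene cannot be told from the table, and genes are named below only as landmarks of the mm10 genome.

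At 5 FPKM or more in either library, 27 of 107 unnamed loci (25.2%) were higher in the knockout library by 2-fold and 7 were lower (6.54%). RefSeq rows of that level gave 0.276% higher and 0.322% lower, and all rows 0.589% and 0.408%. The 389 RefSeq rows of that level with only non-coding transcripts gave 2.06% higher and 3.60% lower. Here too a locus could enter through 1 library: 20 of the 27 higher loci reached 5 FPKM in the knockout library alone, and 6 of the 7 lower loci in the wild-type library alone. Over the 54 unnamed loci with 5 FPKM or more in both libraries, 7 were higher by 2-fold and 1 was lower, with a median difference of 0.15 and 35 positive differences. The 26 higher loci with a chromosome lay on 16 chromosomes, and the 7 lower loci on 7. A p-value below 0.05 in the authors' deposited table belonged to 8 of the higher and 3 of the lower loci.

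Of the 27 higher loci, 6 had a listed value of 0 in wild type. CUFF.5511 had 1491 FPKM in the knockout library and 0 in the wild-type library, the second highest level of any assembled locus after Filip1l. Its interval on chromosome 16 runs between the starts of Clic6 and Mir802 (chr16:92498147-93369720) and holds Runx1, a transcription factor of blood and skin, whose RefSeq row had 2.16 FPKM in the knockout and 2.41 FPKM in the wild-type library. CUFF.10902 had 87.4 FPKM in the knockout library and 0 in the wild-type library. It was placed between Pla2g1b and Gcn1l1 (chr5:115466142-115565117), an interval that also holds Rplp0, a ribosomal protein gene with 2741 FPKM in the knockout and 3082 FPKM in wild type. The locus next in number, CUFF.10903, had 2.83 FPKM in the knockout and 5.11 FPKM in wild type, a difference in the other direction.

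CUFF.2130 had 45.0 FPKM in the knockout library and 0 in the wild-type library, in the shortest of these intervals, the 14.02 kb between Gp1ba and Eno3 (chr11:70639102-70653125) that hold Slc25a11, Rnf167 and the profilin gene Pfn1. CUFF.512 had 19.5 FPKM in the knockout library and 0 in the wild-type library and was placed between Serpinb13 and Serpinb11 (chr1:106980984-107362314). That interval holds the Serpinb3 genes, which encode epidermal protease inhibitors, and their RefSeq rows differed unequally. Serpinb3b had 331 FPKM in the knockout and 110 FPKM in wild type, Serpinb3a 20.2 FPKM in the knockout and 10.8 FPKM in wild type, and Serpinb3c and Serpinb3d less than 0.4 FPKM in both. The flanking genes had 13.8 FPKM in the knockout and 13.02 FPKM in wild type (Serpinb11) and 8.26 FPKM in the knockout and 6.49 FPKM in wild type (Serpinb13). CUFF.5547, on chromosome 16 without an interval, had 16.6 FPKM, and CUFF.476, between Gal3st2 and Gm9994 (chr1:93861344-93918437), had 6.36 FPKM in the knockout library, both with 0 in the wild-type library.

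A listed 0 may not be a measured absence in this table. At 5 FPKM or more, 14 of 8687 RefSeq rows were also listed at 0 in 1 library, 8 in the knockout and 6 in the wild-type library, and 13 of the 14 were non-coding. They include small RNAs that every cell uses: Rnu6, a spliceosomal RNA, had 0 FPKM in the knockout and 391 FPKM in wild type, and the snoRNA Snora65 had 67.3 FPKM in the knockout and 0 FPKM in wild type. The share of rows listed at 0 was 5.61% for unnamed loci (6 of 107) and 0.161% for RefSeq rows at this level. Among RefSeq rows with only non-coding transcripts it was 13 of 389, much nearer to the unnamed loci. All 6 unnamed loci had their 0 in the wild-type library, and none of the 28 named loci was listed at 0. Whether the 6 loci are such small RNAs was not tested.

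The other 21 higher loci had at least 1 FPKM in both libraries. CUFF.6251 had 20.6 FPKM in the knockout and 1.42 FPKM in the wild-type library, a log2 difference of 3.16, between Crim1 and Vit (chr17:78200233-78508051). CUFF.3500, placed between the histone gene Hist1h2br and Zfp184 (chr13:21833743-21945053), had 27.0 FPKM in the knockout and 3.42 FPKM in wild type, a log2 difference of 2.66. CUFF.10224 had 30.6 FPKM in the knockout and 4.93 FPKM in wild type, between Mmel1 and the Notch target gene Hes5 (chr4:154869585-154960626). Of the RefSeq rows of these flanking genes, Crim1 showed no such gap, with 7.78 FPKM in the knockout and 8.25 FPKM in wild type. Mmel1, Hes5, Hist1h2br, Zfp184 and Vit each had less than 0.2 FPKM in both libraries, too low to show a gap.

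Further loci of this kind were more abundant in both libraries. CUFF.3168 had 44.8 FPKM in the knockout and 13.9 FPKM in the wild-type library, between Map3k9 and 1700085C21Rik on chromosome 12. CUFF.1443 had 35.8 FPKM in the knockout and 8.43 FPKM in wild type, between Gm4792 and 4932415G12Rik on chromosome 10. CUFF.7753 had 31.0 FPKM in the knockout and 11.8 FPKM in wild type, between Pramel6 and the olfactory receptor gene Olfr153 on chromosome 2, both of which had 0 FPKM in each library. The remaining higher loci, among them CUFF.7605 with 21.05 FPKM in the knockout and 4.91 FPKM in wild type, CUFF.8665 with 25.4 FPKM in the knockout and 7.62 FPKM in wild type and CUFF.6339 with 30.7 FPKM in the knockout and 10.8 FPKM in wild type, differed by between 1.02 and 1.90 on the log2 scale.

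The 7 lower loci were above 0 in both libraries. CUFF.1348 had 1.03 FPKM in the knockout and 7.57 FPKM in the wild-type library, a log2 difference of -2.08, on chromosome 10. CUFF.1706 had 3.68 FPKM in the knockout and 11.3 FPKM in wild type, between Aebp1 and Ccm2 (chr11:5861866-6546887), and CUFF.12730 had 5.64 FPKM in the knockout and 14.6 FPKM in wild type, between the olfactory receptor genes Olfr668 and Olfr670 (chr7:104924806-104959792). CUFF.5979 had 3.20 FPKM in the knockout and 8.41 FPKM in wild type and was placed between H2-Q10 and Pou5f1 in the major histocompatibility complex (chr17:35470089-35506032). The others were CUFF.4097 with 1.84 FPKM in the knockout and 6.14 FPKM in wild type, CUFF.8473 with 4.12 FPKM in the knockout and 10.8 FPKM in wild type and CUFF.2894 with 1.91 FPKM in the knockout and 5.56 FPKM in wild type.

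**Figure D3:**
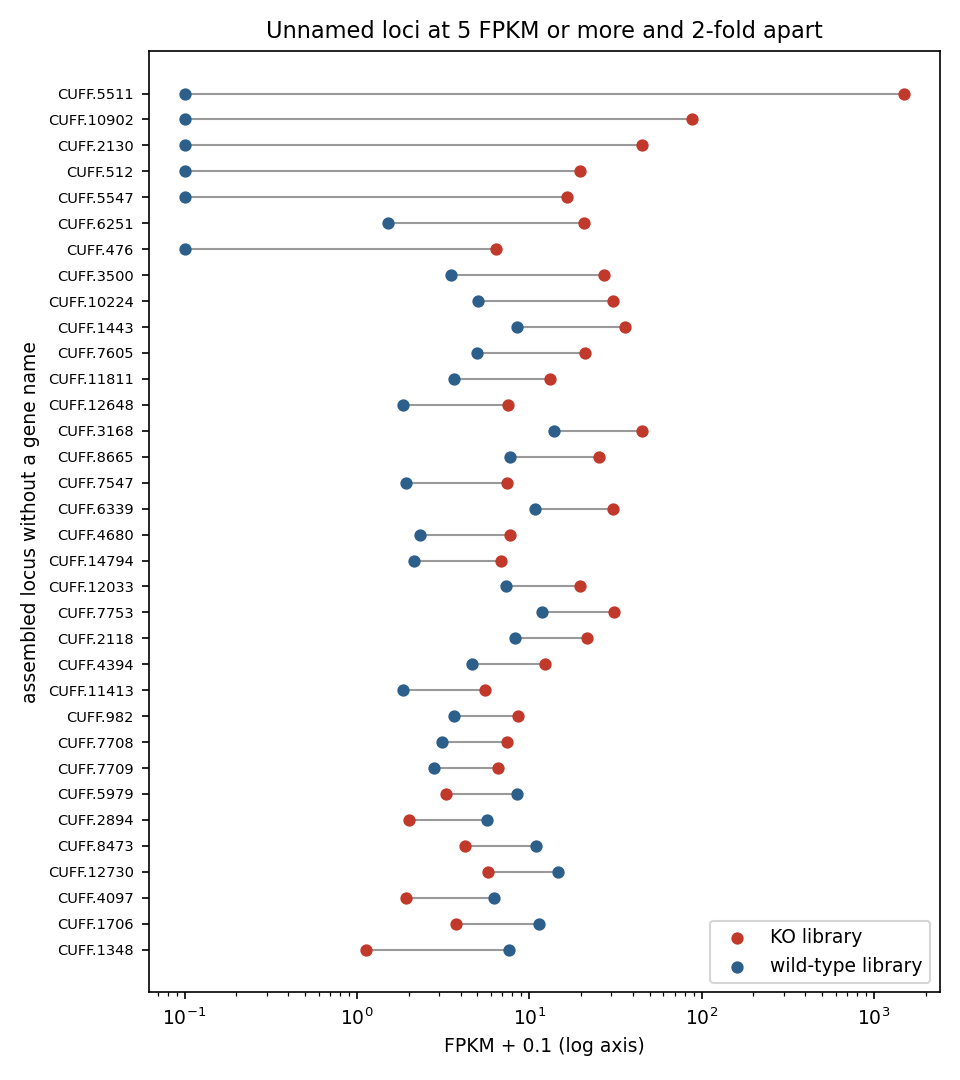
FPKM + 0.1 on a log axis in the knockout (red) and wild-type (blue) library for the 34 unnamed loci of at least 5 FPKM in either library that were 2-fold apart, ordered by log2 difference. The upper 27 are higher in the knockout library, 6 of them with a listed 0 in wild type, and the lower 7 are lower.

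With the filter of 1 FPKM in either library, the tilt of the unnamed loci was spread over the chromosomes. Their median difference was above that of RefSeq rows on 18 of 20 chromosomes, and it ran between -0.08 on chromosome 17 and 0.24 on chromosome 18. RefSeq medians ran only between -0.06 and -0.0086. More unnamed loci were 2-fold higher than lower on 16 chromosomes, with 10 and 2 on chromosome 1, and more were lower on 3, with 2 higher and 6 lower on chromosome 4. Most of these loci passed the filter only through the library where they were high. With 1 FPKM or more in both libraries, 24 unnamed loci were 2-fold higher and 13 lower, and these were not split by chromosome. Loci also lay beside one another: 418 of the 1201 stood in 171 runs of neighbouring numbers, and 158 of 247 neighbouring pairs differed in the same direction. No such count was made for RefSeq rows or for all rows, so this number has nothing to be read against. Whether neighbouring loci are pieces of 1 transcript cannot be told, so the pairs are not separate observations. The longest run, of 8 loci on chromosome 2, held both CUFF.7275, with 3.71 FPKM in the knockout and 1.73 FPKM in wild type, and CUFF.7279, with 0.769 FPKM in the knockout and 4.52 FPKM in wild type.

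Some of the loci were placed in gene clusters known for epidermal or immune functions. Over the whole genome 1201 assembled loci stood beside 11893 RefSeq rows past the filter. Counts of loci in a cluster are to be read against its RefSeq rows, and whether a cluster holds more or fewer loci was not tested. The epidermal differentiation complex on chromosome 3 encodes the proteins of the cornified envelope and S100 proteins, and 14 assembled loci fell in it, 11 of them unnamed. Their median difference was 0.04 and 8 were positive, beside a median of 0.13 and 37 positive differences among 54 RefSeq rows. The locus CUFF.8775, made of 4 transcripts and placed between 9130204L05Rik and Prr9, had 11.5 FPKM in the knockout and 5.62 FPKM in the wild-type library. CUFF.8772 had 2.44 FPKM in the knockout and 0.725 FPKM in wild type, and CUFF.8799, the most abundant of the cluster, had 13.1 FPKM in the knockout and 12.7 FPKM in wild type. None of the 14 reached 2-fold on the log2(FPKM + 1) scale.

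In the Skint cluster on chromosome 4, whose genes are expressed in keratinocytes and thymus and whose founding member selects epidermal gamma delta T cells, 3 of 4 unnamed loci were higher, with a median of 0.71. CUFF.9662 had 7.06 FPKM in the knockout and 3.68 FPKM in the wild-type library, CUFF.9665 had 4.34 FPKM in the knockout and 2.44 FPKM in wild type, and CUFF.9663 had 2.48 FPKM in the knockout and 0.844 FPKM in wild type, all between Skint3 and Gm12814 (chr4:112232245-112559746). The 12 RefSeq rows of that cluster had a median of -0.04. These 3 loci share 1 interval and nearly adjoining numbers, so whether they are pieces of 1 transcript cannot be told, and they are not 3 separate observations.

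In the type II keratin cluster on chromosome 15, 4 of 5 unnamed loci were lower in the knockout library. Their median was -0.84, beside -0.02 for 13 RefSeq rows. All were low: CUFF.5035 had 0.243 FPKM in the knockout and 1.34 FPKM in wild type, and CUFF.5042, between 5430421N21Rik and the hair keratin gene Krt84, had 0.600 FPKM in the knockout and 1.86 FPKM in wild type. The hair follicle keratin gene Krt71 was also lower in its RefSeq row, with 1.92 FPKM in the knockout and 5.17 FPKM in wild type. The hair follicle marker list had 5 of 6 genes past the filter, 0 of them higher in the knockout library, with summed levels of 9.36 FPKM in the knockout and 18.2 FPKM in wild type. Of the 4 lower loci, CUFF.5035, CUFF.5037 and CUFF.5038 share 1 interval, between Grasp and Mir1941 (chr15:101224207-101369352), which begins before the cluster and also holds Nr4a1 and Atg101. Whether these are pieces of 1 transcript, and whether they lie in the keratin cluster at all, cannot be told, and they are not 3 separate observations. The part of hair follicle content in these loci was not tested.

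Loci near some interferon-induced genes were also searched. No assembled locus of at least 1 FPKM was placed in the Ifit cluster, the Slfn cluster or the Gbp cluster of chromosome 5. These clusters held only 1, 4 and 0 RefSeq rows, in that order, too few for the absence of loci to be read as a result. Gbp genes elsewhere were not searched, and unnamed loci without an interval could not be placed. CUFF.840, between Ifi203 and Ifi205, had 1.23 FPKM in the knockout and 0.238 FPKM in the wild-type library. The region between the Oasl and Oas genes on chromosome 5, which spans many other genes, held 7 loci with a median of 0.37, among them CUFF.10902, listed at 0 in wild type. The 47 RefSeq rows of that region had a median of -0.06, and 18 were positive. The major histocompatibility complex held 8 loci with a median of -0.06 and 98 RefSeq rows with a median of -0.03, and its RefSeq rows past 2-fold were lower, such as H2-T22 with 5.32 FPKM in the knockout and 15.1 FPKM in wild type.

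**Figure D4:**
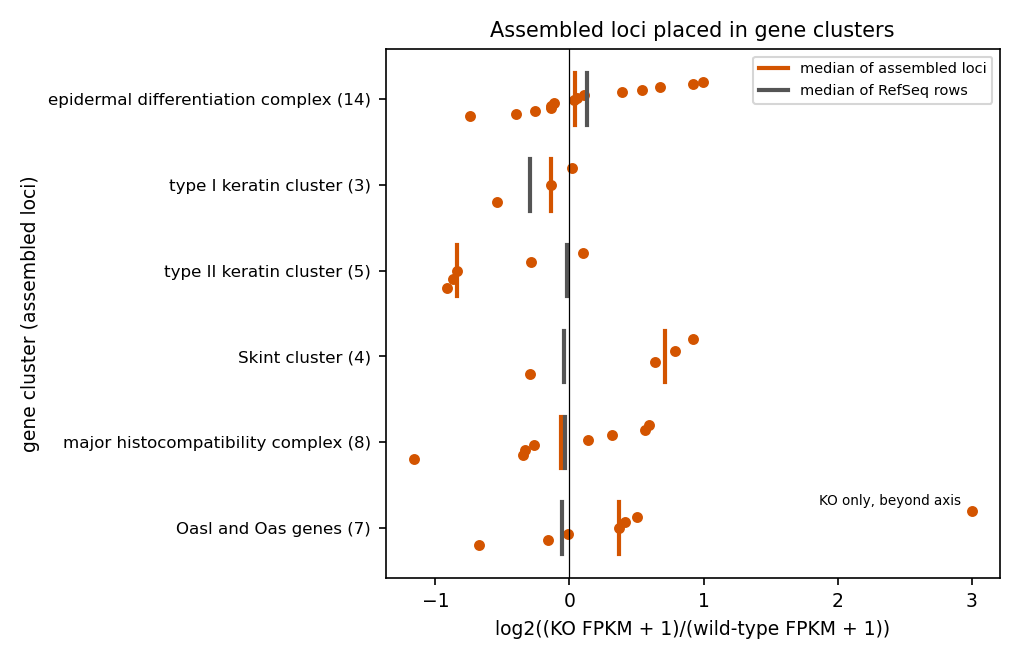
Log2 difference of each assembled locus (points) placed in or near 6 gene clusters with at least 3 such loci. Bars give the median of the loci (orange) and of the RefSeq rows of the same cluster (grey). Of the loci drawn for the type I keratin cluster, CUFF.2511 (between Hap1 and Klhl11) was placed beyond its end. CUFF.2497 (between Ccr7 and Krt222) was placed at its edge. Loci of the Skint cluster lie mostly to the right and those of the type II keratin cluster to the left, while those of the epidermal differentiation complex lie on both sides; CUFF.10902, at 0 in the wild-type library, is drawn at the right edge.

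The 149 named loci stood beside a RefSeq row of the same name in 148 cases, H2-Q1 being the exception. Of the gene names, GENCODE M21 lists 99 loci under protein-coding genes, with a median difference of -0.01, 22 under long non-coding RNA genes, with a median of 0.10, and 23 under no gene. The assembled locus was above the RefSeq row in both libraries in 79 cases, by at least 10 times in 26, and below it in both in 59. How reads of an overlapping span were divided between a locus and its RefSeq row cannot be told from the table. Over 85 pairs whose RefSeq row had at least 1 FPKM, 42 differed in the same direction, and the correlation of the differences, a description over pairs of the same 2 libraries, was 0.07 (Pearson) and 0.11 (Spearman). The median size of the difference was 0.23 for the loci and 0.14 for the RefSeq rows.

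The locus named Filip1l, after a filamin-interacting protein, was the most abundant assembled locus. It had 2289 FPKM in the knockout and 1267 FPKM in the wild-type library, a log2 difference of 0.85, whereas the RefSeq row of Filip1l had 7.19 FPKM in the knockout and 6.78 FPKM in wild type. GENCODE places Filip1l at chr16:57353093-57573126 on the plus strand, inside the span of Cmss1 on the minus strand (chr16:57302000-57606864), and lists no other gene that overlaps it. What the locus consists of cannot be told from its single transcript identifier.

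Other named loci were far above their RefSeq row and nearly level between the libraries. The locus named Aldh5a1, an enzyme of GABA breakdown, had 31.2 FPKM in the knockout and 31.4 FPKM in the wild-type library, beside 2.37 FPKM in the knockout and 2.35 FPKM in wild type in its RefSeq row. The locus of Brip1, a DNA repair helicase, had 7.59 FPKM in the knockout and 8.08 FPKM in wild type, beside 1.23 FPKM in the knockout and 1.13 FPKM in wild type. Hand1, a transcription factor of heart development, had 5.68 FPKM in the knockout and 4.77 FPKM in wild type at its locus, beside 0.136 FPKM in the knockout and 0.0961 FPKM in wild type. The long non-coding gene 4933407E24Rik, whose RefSeq row was at 0 in both libraries, had a locus of 9 assembled transcripts with 5.79 FPKM in the knockout and 5.26 FPKM in wild type. Spag17, a gene of motile cilia, had 4.36 FPKM in the knockout and 3.99 FPKM in wild type at its locus, beside 0.0369 FPKM in the knockout and 0.0383 FPKM in wild type. All 5 loci had near-equal levels in both libraries and lay well above the RefSeq rows of their names.

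Of the 28 named loci of at least 5 FPKM, 1 was 2-fold higher (3.57%) and 1 was 2-fold lower (3.57%). The locus of C530005A16Rik, a non-coding gene at chr4:116589733-116597630, had 13.8 FPKM in the knockout and 2.11 FPKM in the wild-type library, a log2 difference of 2.25, beside 0.507 FPKM in the knockout and 0.722 FPKM in wild type in its RefSeq row. The LOC100862208 locus had 4.16 FPKM in the knockout and 12.97 FPKM in wild type, a log2 difference of -1.44, beside 0 FPKM in the knockout and 0.0689 FPKM in wild type. At lower levels, 3 more loci were 2-fold higher: 4933430M04Rik with 3.09 FPKM in the knockout and 0 FPKM in wild type, Tnr, a brain matrix protein gene, with 1.37 FPKM in the knockout and 0 FPKM in wild type, and Gm4876 with 3.52 FPKM in the knockout and 0.994 FPKM in wild type. Another 3 were lower: LOC100862199 with 0.232 FPKM in the knockout and 2.35 FPKM in wild type, 3200001D21Rik with 0.791 FPKM in the knockout and 3.80 FPKM in wild type, and Prdm8, a gene of the PRDM family of transcriptional regulators, with 0.564 FPKM in the knockout and 2.33 FPKM in wild type.

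The remaining higher and lower loci of at least 5 FPKM stayed within 2-fold. Prr9, a gene of the epidermal differentiation complex whose upstream sequence is shown above, had 10.7 FPKM in the knockout and 6.35 FPKM in the wild-type library at its locus of 5 transcripts, a log2 difference of 0.68. Its RefSeq row had 1.31 FPKM in the knockout and 2.68 FPKM in wild type, a log2 difference of -0.67, so the row and the locus differed in opposite directions. The locus of Zfp92, a zinc finger gene, had 6.62 FPKM in the knockout and 4.17 FPKM in wild type. The loci of Dnajc19, a mitochondrial import gene, with 5.01 FPKM in the knockout and 4.06 FPKM in wild type, of the transcription factor gene E4f1, with 6.53 FPKM in the knockout and 5.42 FPKM in wild type, and of the organic anion transporter gene Slco2b1, with 6.55 FPKM in the knockout and 5.86 FPKM in wild type, differed little. Mtx1, a mitochondrial outer membrane gene, had 15.5 FPKM in the knockout and 14.8 FPKM in wild type, and Gpld1, a phospholipase gene, 9.28 FPKM in the knockout and 8.95 FPKM in wild type. LOC100862191, the most abundant named locus after Filip1l, had 39.8 FPKM in the knockout and 37.3 FPKM in wild type.

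Among the lower of these loci, Klhdc9, a kelch-domain gene, had 10.5 FPKM in the knockout and 16.8 FPKM in the wild-type library, whereas its RefSeq row had 4.70 FPKM in the knockout and 3.33 FPKM in wild type. The locus of Slc5a10, a sugar transporter gene, had 6.96 FPKM in the knockout and 12.8 FPKM in wild type. The locus of Wdr65, listed by GENCODE as the cilia gene Cfap57, had 19.9 FPKM in the knockout and 27.9 FPKM in wild type, against a RefSeq row of 28.7 FPKM in the knockout and 23.9 FPKM in wild type. All 3 thus had a locus lower and a RefSeq row higher in the knockout library, the Slc5a10 row having 0.555 FPKM in the knockout and 0.209 FPKM in wild type. The long non-coding gene 4930455D15Rik had 12.2 FPKM in the knockout and 18.1 FPKM in wild type, and 4930483K19Rik, an antisense gene, 9.82 FPKM in the knockout and 12.2 FPKM in wild type.

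Loci of 1 name did not always differ in the same direction. Gm19909 had 3 loci of at least 5 FPKM, with 14.6, 7.64 and 5.90 FPKM in the knockout and, in the same order, 20.9, 10.1 and 8.69 FPKM in the wild-type library, all lower in the knockout like its RefSeq row of 52.3 FPKM in the knockout and 66.0 FPKM in wild type. Gm19365 had 2, of which CUFF.10256 had 10.4 FPKM in the knockout and 9.23 FPKM in wild type and CUFF.10255 had 5.42 FPKM in the knockout and 10.4 FPKM in wild type. Smaller differences were found at Vars, the valyl-tRNA synthetase gene, with 9.10 FPKM in the knockout and 11.1 FPKM in wild type, at the lectin gene Clec2g with 7.40 FPKM in the knockout and 8.45 FPKM in wild type, and at the muscle enzyme gene Pgam2 with 5.49 FPKM in the knockout and 6.34 FPKM in wild type.

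**Figure D5:**
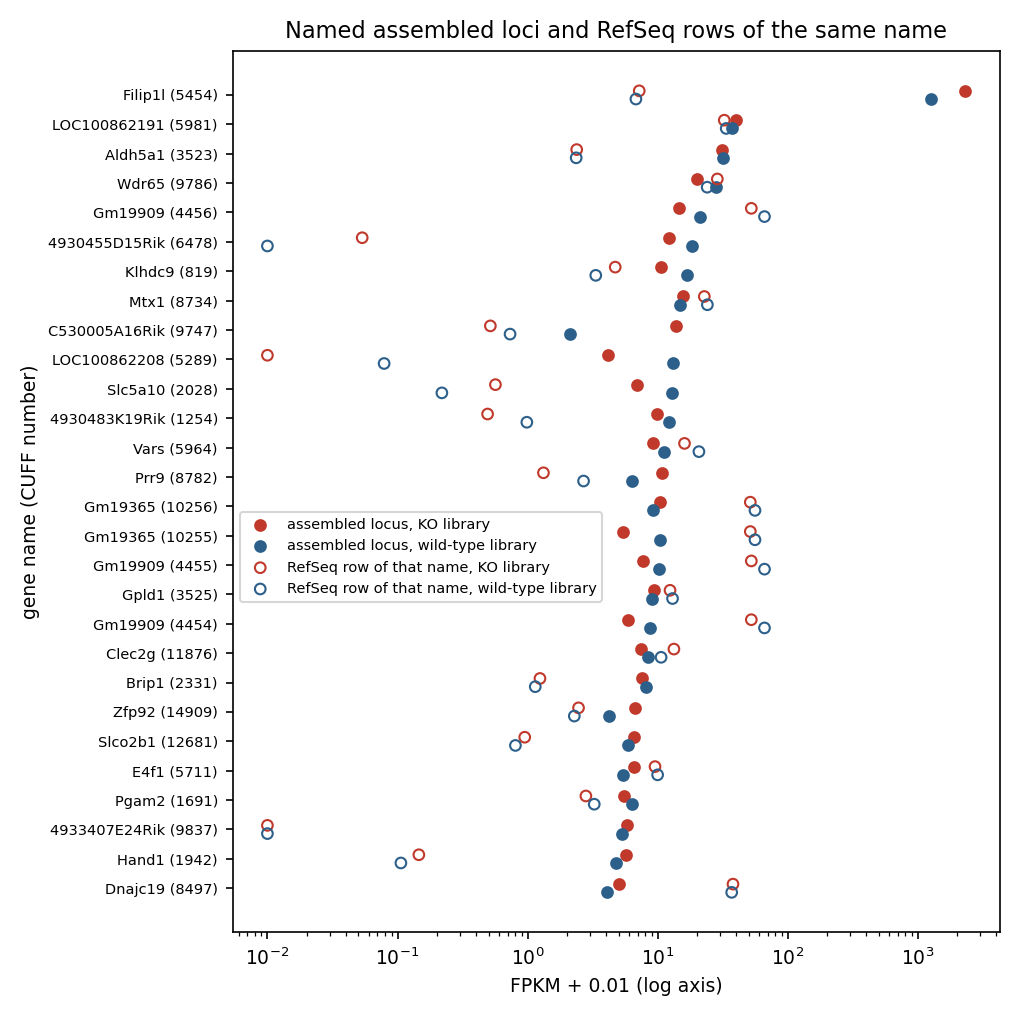
FPKM + 0.01 on a log axis for the 28 named loci of at least 5 FPKM (filled) and the RefSeq row of the same name (open), in the knockout (red) and wild-type (blue) library. Filip1l stands far to the right with 2289 FPKM in the knockout and 1267 FPKM in wild type, C530005A16Rik has the widest gap among the loci, and loci and RefSeq rows of 1 name often lie more than 10-fold apart.

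Some loci carry names of skin and immune genes, and the following were chosen with their values in view. The locus of Ccr10, the receptor of the keratinocyte chemokine Ccl27, had 0.562 FPKM in the knockout and 1.89 FPKM in the wild-type library, beside a RefSeq row of 0.306 FPKM in the knockout and 0.828 FPKM in wild type. That of Pla2g4d, an epidermal phospholipase gene, had 0.204 FPKM in the knockout and 1.24 FPKM in wild type. The locus of Il12rb2, an interleukin-12 receptor subunit gene, had 1.19 FPKM in the knockout and 1.08 FPKM in wild type, whereas its RefSeq row had 4.39 FPKM in the knockout and 7.43 FPKM in wild type. The locus of the cornified envelope gene Sprr2k had 3.07 FPKM in the knockout and 2.91 FPKM in wild type, nearly level. Smcp lies in the epidermal differentiation complex but is not counted here as a skin gene. Its locus was also nearly level, with 1.19 FPKM in the knockout and 1.41 FPKM in wild type.

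Small RNA names were rare. The locus of 3 transcripts that carries the name Mir365-1 had 2.13 FPKM in the knockout and 2.15 FPKM in the wild-type library, while the RefSeq row of that microRNA gene was at 0 in both; the mature forms of that gene are those printed above. The Mir1945 locus had 0.475 FPKM in the knockout and 0.877 FPKM in wild type, under the filter. The locus of Scarna17, a small RNA of Cajal bodies on chromosome 18, had 1.93 FPKM in the knockout and 0.555 FPKM in wild type beside a RefSeq row at 0 in both libraries.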

How the data were processed

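RNA-seq values of 1 knockout and 1 wild-type library were used, with groups taken from the genotype labels. Per the labels' protocols, epidermis was freed with dispase II (1 mg/ml, 37 °C, 1 h) and 3 µg of total RNA went into a TruSeq mRNA kit. The genome was mm10 and the tools TopHat2 2.0.13 and Cufflinks 2.2.1, per the submitters' processing notes; no source used here gives the annotation release, options or strand setting. Each row's deposited value is an FPKM, per the file headers, and the authors' log2 fold change, test statistic (a score), p-value and q-value are deposited beside them. FPKM divides by length, so short loci are imprecise.

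Differences are log2 ratios of FPKM + 1, computed here, with a filter of 1 FPKM in either library and counts at 2-fold. No p-value was computed. Named loci were the 12 most abundant named, the 12 highest and 12 lowest named of at least 5 FPKM, every locus of at least 5 FPKM at 0 in 1 library, and the 6 most abundant, highest and lowest unnamed; further loci were chosen with their values in view. The members, lists, rules and gene clusters were chosen with earlier results of these data known. Positions are GENCODE M21 (GRCm38) and RefSeq; the names of 117 of the 149 loci matched GENCODE directly and those of 9 by synonym. The steps were tested on simulated data. Python 3.11.15, numpy 2.4.6, pandas 2.3.3 and matplotlib 3.10.9 were used. Spreadsheet settings deposited as further tables were left out.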

Additional observations from a re-analysis of the deposited data

How the results depend on the processing

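No paired analysis was possible because each genotype has 1 library, and for the same reason no replicate could be left out. The counts past 2-fold depend on the scale and the filter. Named loci higher in the knockout library (4) numbered 13 with a pseudocount of 0.1 FPKM, 1 with 5 FPKM, 1 with a filter of 5 FPKM, 1 with 1 FPKM in both libraries, 18 at 1.5-fold and 2 at 4-fold. Named loci lower (4) numbered 16, 0, 1, 1, 21 and 0 under the same settings in that order. Unnamed loci higher (87) numbered 219, 18, 27, 24, 217 and 13, and unnamed loci lower (44) numbered 133, 1, 7, 13, 130 and 5. Unnamed loci were more often higher than lower under each of these settings. The median of named loci (-0.0089) was 0.0086 with no filter, 0.011 when centred on all rows and 0.0086 when scaled on the upper quartile, so it has no firm sign. The median of unnamed loci (0.08) was 0.28 with a filter of 5 FPKM. The share of summed FPKM in the knockout library was 0.659% without the 2 most abundant loci. The filters of 1 and 5 FPKM in both libraries and the removal of those loci were chosen after seeing the data. With 5 FPKM or more in both libraries, 7 unnamed loci were higher and 1 was lower, and their median was 0.15. The other 36 of 68 values kept their direction, and their counts and shares stayed within 1.5 times, but the medians moved in size, between 0.03 and 0.13 for unnamed loci and between -0.04 and -0.0053 for named loci. The alternative without the shortest loci was not run, since the table gives no locus length. With 1 library per genotype, what separates the genotypes and what separates any 2 libraries cannot be told apart.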
